A study of Homo sapiens with 12 samples.

Results

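The genes of the urea cycle and its direct links were followed in 2 lung cancer cell lines that carried a VGF lentivirus or an empty vector. The set held CPS1, NAGS, OTC, ASS1, ASL, ARG1, ARG2, SLC25A15, OAT and CAD, which is 10 of the 26535 features in the deposited tables, and all 10 were found by gene name. The set was chosen by the measured counts of CPS1, which were higher with VGF in A549. Its VGF effect in A549 and the difference of that effect between lines are therefore given as descriptions without a test. The other 9 genes were taken for their place in the pathway.

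The urea cycle turns ammonia and bicarbonate into urea, mainly in periportal hepatocytes, with its first steps in mitochondria and its later steps in the cytosol. CPS1 makes carbamoyl phosphate in mitochondria and needs N-acetylglutamate, the product of NAGS, to be active. CAD makes carbamoyl phosphate in the cytosol for pyrimidine synthesis, so both enzymes stand at the entry of nitrogen into different pathways. Outside the liver the cycle is rarely complete, and single enzymes serve arginine, polyamine, proline or pyrimidine metabolism.

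A549 is a lung adenocarcinoma line and H1299 (NCI-H1299 in the labels) is a non-small-cell lung carcinoma line. The labels give both as WT. Each line received empty vector lentivirus or VGF overexpression, with 3 libraries in each of the 4 groups and replicates that the design text calls biologically independent. A549 was grown in DMEM/F12 and H1299 in RPMI-1640, each with fetal bovine serum, so a comparison of the lines includes the medium. All 12 libraries share lentiviral transfer, and the labels do not say whether clones or pools were used.

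Library totals ran from 31378171 to 41919484 counts. VGF RNA, from 67 to 94 counts in A549 control libraries, reached 39803 to 46973 with the VGF vector (log2 fold change 9.04), and in H1299 it went from 3465 to 3989 up to 35974 to 47251 (log2 fold change 3.52). The log2 fold changes come from edgeR's quasi-likelihood test, with Benjamini-Hochberg adjustment over 18228 tested features and a threshold of 0.05. The labels of the lines were checked with CDKN2A, a gene that A549 is known to lack: its A549 libraries held 0 to 51 counts and its H1299 libraries 5158 to 7075. The lung markers NKX2-1 and SFTPB had at most 16 and 2 counts in any library, so RNA of these 2 markers was at trace level at most. The keratin KRT18 had 23472 to 94524 counts. With empty vector, 5 of 6 epithelial markers were called lower in H1299 than in A549 and 0 higher, where 38.6% of all features were lower. KRT18 was 3.82-fold, KRT8 7.85-fold and KRT7 858-fold lower, and CDH1 had 0 counts in H1299 controls. A549 VGF library 2 stood apart by its endothelial transcripts, with 3305 counts of PECAM1, 3387 of CDH5 and 1559 of VWF. Results in A549 are given with and without that library where they rest on it.

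CPS1 (ENSG00000021826) lies at GRCh38 chr2:210477682-210679107 on the plus strand. The starts of CPS1 and of LANCL1, its neighbour on the minus strand, are 30 bases apart. RefSeq (build GRCh38.p14) gives a window from 250 bases before to 50 bases after the start for each of the 10 genes, 13 windows in all, 3 of them for CPS1. Sequences are shown for CPS1, ASS1 and ARG2, the genes whose RNA differed most between the lines, with matches to short motifs in capitals. Searches on both strands covered the TATA box as TATAAA, the box read as CCAAT, the cAMP response element as TGACGTCA, the E-box as CACGTG and a core of HNF4A sites as CAAAGTCCA, none overlapping another in these windows. The CPS1 window is chr2:210477435-210477734 on the plus strand, the ASS1 window is chr9:130444711-130445010 on the plus strand, and the ARG2 window is chr14:67619670-67619969 on the plus strand.
CPS1: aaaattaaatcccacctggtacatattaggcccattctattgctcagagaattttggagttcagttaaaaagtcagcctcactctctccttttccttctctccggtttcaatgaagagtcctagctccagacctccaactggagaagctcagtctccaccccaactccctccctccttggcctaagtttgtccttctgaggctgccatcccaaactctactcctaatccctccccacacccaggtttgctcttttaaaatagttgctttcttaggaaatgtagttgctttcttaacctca
ASS1: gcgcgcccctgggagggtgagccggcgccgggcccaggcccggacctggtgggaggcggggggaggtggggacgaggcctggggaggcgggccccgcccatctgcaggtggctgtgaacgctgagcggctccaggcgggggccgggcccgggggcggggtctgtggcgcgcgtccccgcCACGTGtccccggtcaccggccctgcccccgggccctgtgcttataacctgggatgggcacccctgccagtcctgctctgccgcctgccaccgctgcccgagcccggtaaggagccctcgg
ARG2: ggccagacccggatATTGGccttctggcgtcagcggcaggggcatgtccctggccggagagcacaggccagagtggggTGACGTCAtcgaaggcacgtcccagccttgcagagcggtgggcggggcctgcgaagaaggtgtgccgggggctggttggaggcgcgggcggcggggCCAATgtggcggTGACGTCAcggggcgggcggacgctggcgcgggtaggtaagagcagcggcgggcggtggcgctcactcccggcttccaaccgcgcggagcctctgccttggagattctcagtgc
The CPS1 window shown, at the start next to LANCL1, held none of the 5 motifs, nor did the CPS1 window at chr2:210593105-210593404, while the third, chr2:210519468-210519767, held 1 CACGTG and 1 CCAAT. The ASS1 window held 1 CACGTG, a motif present in 7.26% of 35116 RefSeq windows of the same length, and the other ASS1 window, chr9:130444457-130444756, held none of the 5. The ARG2 window held 2 copies of TGACGTCA, present in 1.85% of all windows, and 2 of the CCAAT box, 1 of them on the other strand, which 34.6% of windows hold. A match describes the letters of the window and shows no binding, and gene counts do not tell which start was used.

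CPS1 RNA was higher in A549 cells that carried VGF, by 2.56-fold. Control libraries 1, 2 and 3 held 1807, 1933 and 2275 counts of CPS1, or 52.6, 57.7 and 68.4 CPM (counts scaled by library total and TMM factor). VGF libraries 1, 2 and 3 held 4874, 5341 and 5339 counts, or 167, 136 and 154 CPM. The lowest VGF library stood above the highest control library, so the groups did not overlap, as was the case for 18.4% of all features in this comparison. Mean CPM was 59.6 ± 8.07 (SD, n = 3) in controls and 152 ± 15.1 (SD, n = 3) with VGF, a fitted change of 1.35 on the log2 scale. Pooled over both groups, the SD of log2 CPM between replicates was 0.17. VGF library 2, which held endothelial transcripts, had the lowest CPS1 level of its group, and without it the log2 change was 1.43. In bulk RNA, more cells expressing a gene and more RNA per cell cannot be told apart.

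In H1299, CPS1 was near the bottom of the measurable range. Control libraries held 45, 36 and 57 counts and VGF libraries 42, 16 and 17. The mean was 1.07 ± 0.29 CPM (SD, n = 3) in controls and 0.612 ± 0.366 CPM (SD, n = 3) with VGF, and VGF library 1, at 1.03 CPM, lay within the range of the controls. The log2 change of -0.80 (SE 0.35, 95% interval -1.56 to -0.03) had an adjusted p of 0.632 by edgeR and was not called. Only 2 of the 9 VGF-control pairs had the higher value in VGF. The estimate rested on few reads: it was -1.40 without H1299 VGF replicate 1 and -0.56 without H1299 VGF replicate 3. As a description, the effect of VGF on CPS1 in H1299 minus that in A549 was -2.15 on the log2 scale. For VGF RNA itself the same difference was -5.52, and its part in the CPS1 values was not tested.

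**Figure D1:**
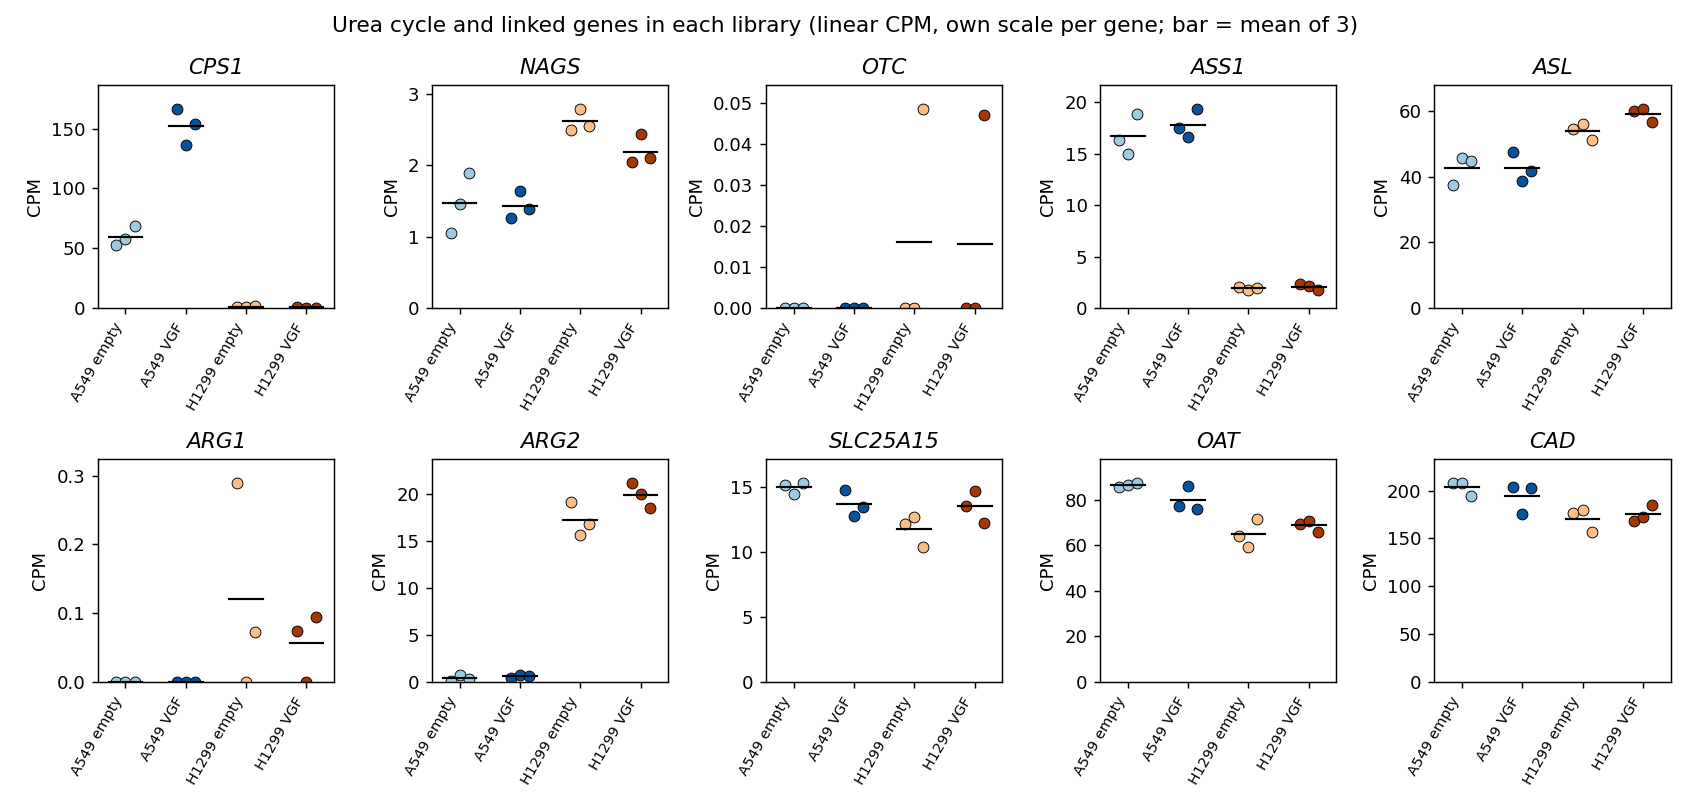
CPM of the 10 genes in each library, on a linear axis from 0 with its own scale per gene. Points are the 3 libraries of a group and bars their mean. CPS1 is the gene whose A549 VGF libraries, at 136 to 167 CPM, stand clear of the controls at 52.6 to 68.4, while OTC and ARG1 sit at or near 0.

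CPS1 and CAD, the mitochondrial and cytosolic carbamoyl phosphate synthetases, were compared per length with the deposited FPKM values. CPS1 was at 7.98, 8.85 and 10.4 FPKM in the A549 controls and at 25.3, 20.8 and 23.0 FPKM with VGF. CAD was at 25.4, 25.4 and 24.1 FPKM in the controls and at 25.1, 21.4 and 24.5 with VGF. In A549 the ratio of CPS1 to CAD therefore went from 0.314, 0.349 and 0.434 to 1.01, 0.972 and 0.937, close to equal FPKM of both synthetases. In H1299 the same ratio lay between 0.00267 and 0.011 in the 6 libraries, with CAD at 22.0 to 25.3 FPKM. The A549 ratio contains the CPS1 rise that chose the set, and it is a description.

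**Figure D2:**
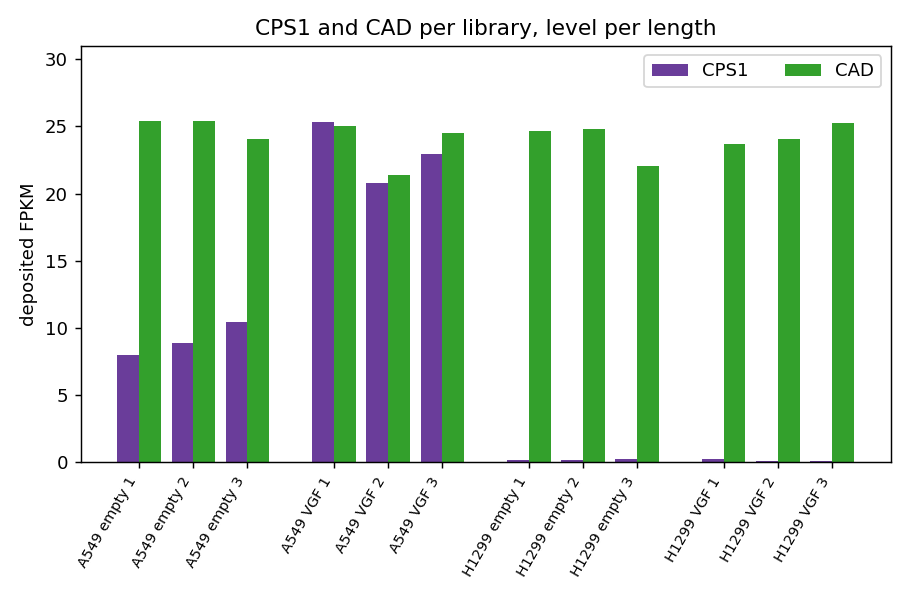
Deposited FPKM of CPS1 and CAD in the 12 libraries, as bars from 0. In A549 with VGF both genes stand at 20.8 to 25.3 FPKM, in A549 controls CPS1 is at 7.98 to 10.4 beside CAD at 24.1 to 25.4, and in H1299 CPS1 is barely above 0.

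NAGS makes the N-acetylglutamate that activates CPS1. It had 36, 49 and 63 counts in A549 controls and 37, 64 and 48 with VGF. The log2 change was -0.04 (95% interval -0.61 to 0.53, adjusted p = 1 by edgeR), with overlapping groups. In H1299, NAGS had 112, 123 and 105 counts in controls and 83, 97 and 89 with VGF. There the 3 VGF libraries were each below the 3 controls in CPM, yet the change of -0.25 (95% interval -0.80 to 0.30) had an adjusted p of 0.933. These low counts leave intervals that reach past a 1.5-fold change in both lines.

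OTC joins carbamoyl phosphate to ornithine in the mitochondrion. It had 0 counts in all 6 A549 libraries and a sum of 2 in each H1299 group. A count of 0 over a group allows up to 3 counts, or 0.0297 CPM in A549 controls and 0.0291 CPM in A549 with VGF. The step that uses the product of CPS1 in the cycle thus had no detectable RNA in A549 at this depth, with or without VGF. ARG1, the hepatic arginase that releases urea, likewise had 0 counts in A549, and 16 and 7 counts summed over the H1299 control and VGF groups. Neither gene passed the filter on low counts, so 8 of the 10 genes were tested.

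SLC25A15 carries ornithine and citrulline across the mitochondrial membrane. It had 520, 482 and 509 counts in A549 controls and 430, 500 and 467 with VGF. In H1299 the controls held 427 to 559 counts and the VGF libraries 519 to 584. The libraries of the vectors overlapped in both lines, and the log2 changes were -0.13 in A549 (95% interval -0.37 to 0.11) and 0.20 in H1299 (95% interval -0.04 to 0.44). Their difference of 0.33 had an adjusted p of 0.451 by edgeR.

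ASS1 joins citrulline and aspartate, the step that cells need to make their own arginine. A549 controls held 562, 500 and 627 counts and A549 VGF libraries 513, 649 and 673. H1299 controls held 91, 76 and 82 counts and H1299 VGF libraries 94, 86 and 73. VGF and control libraries overlapped in both lines, while every A549 library stood far above every H1299 library. With VGF the log2 changes were 0.09 in A549 (95% interval -0.21 to 0.40) and 0.11 in H1299 (95% interval -0.24 to 0.45). The ASS1 FPKM of H1299 VGF library 1 rests on an effective length of 2098 bases, read from its counts and FPKM, against 1655 to 1689 in the other libraries, so counts were preferred for this gene. ASS1 also has 11 named pseudogenes in GENCODE 29, and how reads shared with them were counted is not given in the sources used here.

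ASL splits argininosuccinate into arginine and fumarate. It had 1290, 1529 and 1486 counts in A549 controls and 1385, 1507 and 1451 with VGF, and a log2 change of -0.004 (95% interval -0.19 to 0.18) whose sign differed between processing settings. H1299 controls held 2445, 2465 and 2107 counts and VGF libraries 2428, 2416 and 2405. In H1299 the VGF libraries, at 56.7 to 60.6 CPM, lay above the controls, at 51.2 to 55.9 CPM, but the change of 0.13 (95% interval -0.05 to 0.31) had an adjusted p of 0.786. ASL shares 17.6% of its exonic bases with AC068533.4 on the same strand, which had at most 22 counts in any library.

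ARG2 is the mitochondrial arginase of tissues outside the liver. A549 controls held 4, 23 and 9 counts and A549 VGF libraries 13, 29 and 20. H1299 controls held 861, 687 and 693 counts and H1299 VGF libraries 861, 798 and 785. The A549 groups overlapped, and the change of 0.73 had a 95% interval from -0.18 to 1.65 and an adjusted p of 0.481 by edgeR. That A549 value was 1.62 without A549 control replicate 2 and 0.31 without A549 control replicate 1. In H1299 the change was 0.21 (95% interval -0.36 to 0.78). On the opposite strand VTI1B shares 37.4% of the exonic bases of ARG2, and whether counting used strand is not given. In A549 libraries VTI1B ranged from 2560 to 3630 counts, where ARG2 held at most 29, and in H1299 libraries from 5811 to 6398.

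OAT turns ornithine into a precursor of proline and glutamate. A549 controls held 2937, 2892 and 2911 counts and A549 VGF libraries 2263, 3361 and 2643, which gave 85.5 to 87.5 CPM and 76.0 to 85.9 CPM. The log2 change was -0.12 (95% interval -0.26 to 0.03). In H1299 OAT had 2610 to 2938 counts in controls and 2798 to 2821 with VGF, with a log2 change of 0.08. CAD had 6479 to 7160 counts in A549 controls and 5962 to 7054 with VGF, a log2 change of -0.07 (95% interval -0.22 to 0.08), and 0.04 in H1299 (95% interval -0.11 to 0.19). The CAD groups overlapped in both lines.

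Of the 7 tested genes other than CPS1, 0 were called in A549 with VGF, where 0.79% of all tested features were called. Their smallest adjusted p by edgeR was 0.481, and DESeq2 also called 0. An unadjusted p under 0.05 was held by 0 of the 7 in edgeR and 1 in DESeq2, beside 13.9% of all features in edgeR. The median log2 change of the 7 was -0.04, beside 0.00 over all features. In H1299, 0 of the 8 tested genes were called against a background of 0.011%. Of the 8, 1 gene, CPS1, had an unadjusted p under 0.05 in edgeR (0.0427), beside 7.8% of all features. Here too DESeq2 called 0, and the median log2 change was 0.10 beside -0.01 over all features. In H1299, 2 of the 8 (ASL and NAGS) had vector groups that did not overlap, against 12.7% of all features. For the difference between the lines 0 of 7 were called, against 0.159% of all features, and DESeq2 also called 0. An unadjusted p under 0.05 was held by 0 of the 7 in edgeR, 1 in DESeq2 and 2 in limma voom, beside 11.2% of all features in edgeR. The shares at an unadjusted p were taken from edgeR only, so the DESeq2 and limma voom counts stand without one. At these backgrounds, counts of 0 among 7 or 8 genes do not set the genes apart from the rest. The 95% intervals exclude a change of 1.5-fold in either direction for ASS1, ASL, OAT, SLC25A15 and CAD in A549, but not for NAGS and ARG2.

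**Figure D3:**
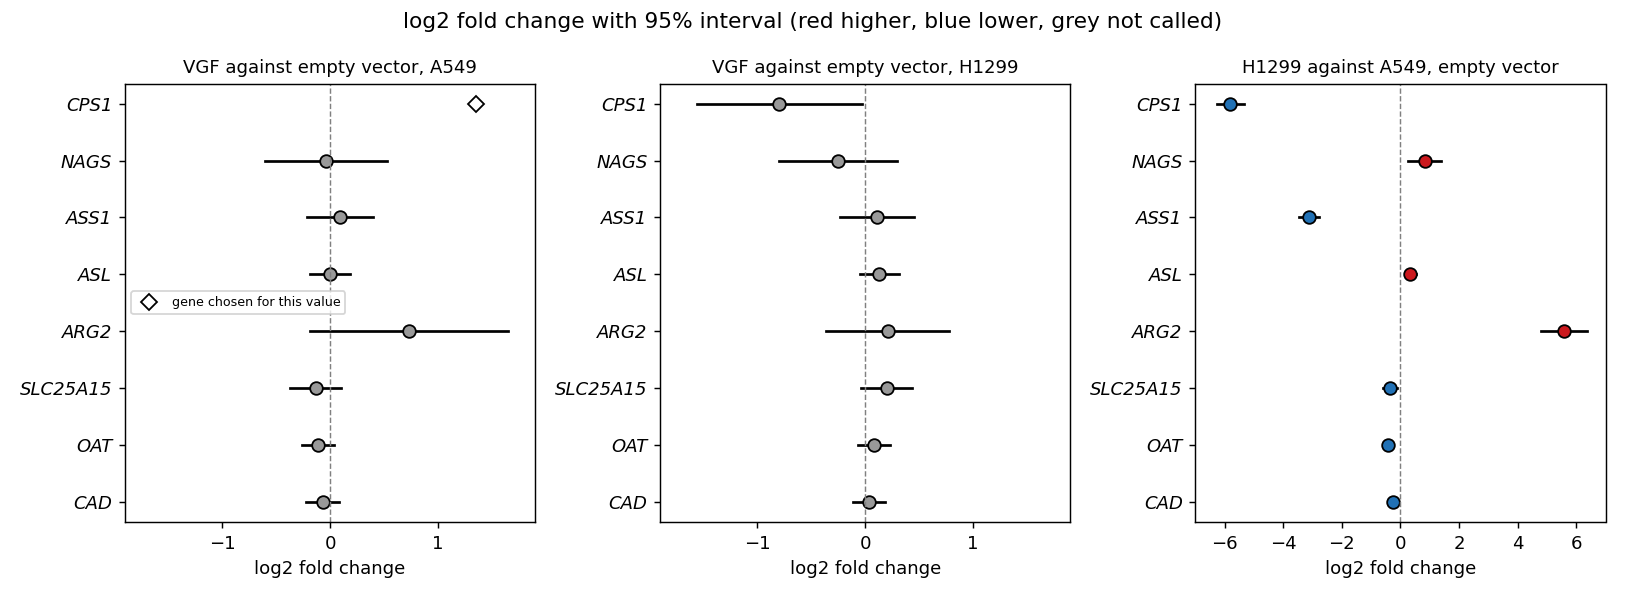
The log2 fold change of the 8 tested genes in 3 comparisons, with 95% intervals from edgeR's quasi-likelihood fit. Filled grey points were not called, red and blue points were called higher and lower, and the open diamond is CPS1 at 1.35 in A549, drawn without an interval because the gene was chosen for that value. The horizontal scale of the comparison of lines is wider.

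The lines themselves differed much more than the vectors did. Between H1299 and A549 with empty vector, 8 of the 8 tested genes were called, 3 higher (38.5% of all features were) and 5 lower (38.6% were) in H1299. That comparison called 77.2% of all features, and 81% had groups that did not overlap, so a high count is the norm there. CPS1 was 55.9-fold lower in H1299 (log2 -5.80, SE 0.21, adjusted p = 3.48e-11 by edgeR), and this value uses the same A549 control libraries as the VGF effect. ASS1 was 8.71-fold lower (log2 -3.12, SE 0.16, adjusted p = 9.74e-10). ARG2 was 47.8-fold higher (log2 5.58, SE 0.36, adjusted p = 1.17e-08), and 6.47 on the log2 scale without A549 control replicate 2. Each of these 3 genes separated the control libraries of the lines in 9 of 9 pairs.

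The remaining genes differed less between the lines. NAGS was higher in H1299 by 0.83 on the log2 scale (adjusted p = 0.0102 by edgeR) and ASL by 0.34 (adjusted p = 0.00265). OAT was lower, with a log2 value of -0.42 (adjusted p = 0.000101). SLC25A15 and CAD were lower with log2 values of -0.35 and -0.26 (adjusted p = 0.0108 and 0.00429), but neither call held with upper-quartile scaling (adjusted p = 0.0583 and 0.0541) or with limma on FPKM. Upper-quartile scaling moved the median of all features by 0.11 on the log2 scale in this comparison. Without H1299 control replicate 3, SLC25A15 also missed the threshold (adjusted p = 0.0526).

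The order of levels per length placed the genes differently in each line. With empty vector, A549 had OAT at 37.2 ± 0.553 FPKM (SD, n = 3), then CAD at 25.0 ± 0.777 and ASL at 19.8 ± 2.05. ASS1 (9.41 ± 1.17), CPS1 (9.09 ± 1.25) and SLC25A15 (8.29 ± 0.295) followed without separation, since their libraries overlapped. NAGS at 0.59 ± 0.174 and ARG2 at 0.151 ± 0.124 came last among the genes with reads. With VGF, CPS1 at 23.0 ± 2.26 FPKM lay between CAD at 23.7 ± 1.97 and ASL at 19.9 ± 2.00, and neither neighbour was separated from it. H1299 with empty vector had OAT at 32.1 ± 3.26 and ASL at 28.6 ± 0.912, which overlapped, followed by CAD at 23.9 ± 1.57. ARG2 (8.52 ± 0.946) and SLC25A15 (7.48 ± 0.72) formed the next pair, then ASS1 (1.23 ± 0.112) and NAGS (1.21 ± 0.0614). CPS1 came lower still, at 0.184 ± 0.0529 FPKM. The H1299 libraries with VGF kept the same order for these 8 genes, from OAT at 33.9 ± 1.67 to CPS1 at 0.105 ± 0.0631 FPKM. The ratio of ASS1 to ASL in FPKM was 0.384 to 0.559 in A549 and 0.0352 to 0.0466 in H1299. The ratio of H1299 VGF library 1, at 0.0384, rests on the ASS1 FPKM with the unlike effective length. The place of ASS1 in the order of the H1299 VGF group includes that FPKM too.

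Genes that feed, drain or border the cycle were read from 6 lists. Counts of their members stand beside the shares over all tested features given above for calls with VGF (0.79% in A549 and 0.011% in H1299), and beside 13.9% in A549 and 7.8% in H1299 with an unadjusted p under 0.05 in edgeR. Among 13 tested genes of nitrogen supply and mitochondrial partners, 0 were called in either line with VGF by edgeR, DESeq2 or limma voom, with 4 in A549 and 0 in H1299 at an unadjusted p under 0.05 in edgeR. Their median log2 changes were -0.09 in A549 and 0.02 in H1299. The member with the smallest p in A549 was SLC25A12, a mitochondrial aspartate-glutamate carrier, at 0.27 (adjusted p = 0.149 by edgeR). Between the lines 5 of the 13 were higher and 6 lower in H1299, against 38.5% and 38.6% of all features. GOT1 and GOT2, the cytosolic and mitochondrial aspartate aminotransferases, were 2.85-fold higher and 2.29-fold lower there.

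Of 25 genes of ornithine, polyamine, proline and nitric oxide metabolism, 1 fell with VGF in A549 and 0 rose, where 0.79% of all features were called. The gene was SAT1, the enzyme that acetylates spermidine and spermine for export or breakdown. A549 controls held 26198, 25045 and 24808 counts of SAT1 and VGF libraries 15445, 21119 and 19096. In CPM the 3 VGF libraries were each below the 3 controls, in a comparison where 18.4% of all features had groups that did not overlap. The log2 change of SAT1 was -0.48 (SE 0.05, adjusted p = 0.000953 by edgeR). H1299 had 1367 to 1486 counts in controls and 1334 to 1400 with VGF, with a log2 change of 0.03. The difference between the lines of 0.51 was called (adjusted p = 0.0174), but not when any of A549 control replicate 1, H1299 control replicate 2, H1299 VGF replicate 1 or H1299 VGF replicate 2 was left out (adjusted p from 0.0515 to 0.0551 in those 4 cases), nor with the replicate number as a block (0.0738). The median log2 change of this list was -0.002 in A549 and 0.01 in H1299, where 0 of the 25 were called by edgeR, DESeq2 or limma voom and 1 had an unadjusted p under 0.05 in edgeR.

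Between the lines 10 of these 25 genes were higher and 10 lower in H1299, close to the 38.5% and 38.6% of all features. ODC1, which makes putrescine from ornithine, was 2.72-fold higher, and its inhibitor OAZ1 and antizyme inhibitor AZIN1 were 2.23-fold and 1.98-fold higher. SAT1 was 23.0-fold lower and SMOX, the spermine oxidase, was 8.68-fold lower. NOS1, the neuronal nitric oxide synthase, had 576 to 814 counts in A549 controls and 0, 0 and 2 in H1299 controls.

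Amino acid transporters, pyrimidine enzymes and the fumarate branch gave 0 calls with VGF in either line by edgeR, among 10, 20 and 6 tested genes. In A549, 2, 6 and 1 of them had an unadjusted p under 0.05 in edgeR, and in H1299 1, 5 and 3. DESeq2 called 1 transporter (SLC7A2) and 3 pyrimidine genes (DTYMK, RRM2 and TYMS) in A549, where it called 736 of the 18228 features. In H1299, where DESeq2 called 139 features, 1 pyrimidine gene (CDA) was among them. CDA had 0 counts in H1299 controls, so that call is set against 0 reads, and edgeR did not make it (adjusted p = 0.447). Limma voom called RRM2 in A549, where it called 334 features. The median log2 changes of the 3 lists in A549 were -0.10, 0.04 and 0.03. DTYMK, the thymidylate kinase, had the smallest p of the pyrimidine genes in A549 (adjusted p = 0.0773 by edgeR). Between the lines 3 transporters were higher and 6 lower in H1299, with the cationic amino acid importer SLC7A1 1.66-fold higher and SLC7A7, a light chain of the y+L system, 28.3-fold lower. In the pyrimidine list 7 were higher and 9 lower. CTPS2, a CTP synthase, was 20.1-fold lower. CDA, the cytidine deaminase, had 460 to 761 counts in A549 controls and 0 in H1299 controls, which makes it at least 822-fold lower against the limit of 3 counts over the group. In the fumarate list 1 was higher and 4 lower, with the malate dehydrogenases MDH2 1.27-fold higher and MDH1 2.05-fold lower. These shares stand beside the background of 77.2%.

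Liver-enriched transcription factors include known regulators of CPS1 in hepatocytes. With VGF edgeR called 0 of the 12 in either line, with 1 in A549 and 4 in H1299 at an unadjusted p under 0.05. DESeq2 called NR1H4 in A549 and HNF4A in H1299, where HNF4A had 0 counts in each VGF library, and limma voom called 0. Over all 18228 features DESeq2 called 736 in A549 and 139 in H1299. Over the 12 factors the median log2 change was 0.04 in A549, with values from -2.14 to 0.37. NR1H4 had the smallest p of the 12 there (adjusted p = 0.135 by edgeR). Between the lines 11 of the 12 were lower in H1299 and 0 higher, against a background of 38.6% lower. HNF4A had 1797, 1989 and 1959 counts in A549 controls and 4, 11 and 0 in H1299 controls. FOXA2 was 59.4-fold lower in H1299 (adjusted p = 4.78e-13 by edgeR), with 23, 29 and 30 counts. The glucocorticoid receptor NR3C1 was 3.39-fold lower, and FOXA3, with 7 to 21 counts in the control libraries of both lines, was not called. In A549 the HNF4A counts with VGF were 1959, 2045 and 2269, which overlapped the controls in CPM. The part of these factors in the CPS1 levels was not tested.

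**Figure D4:**
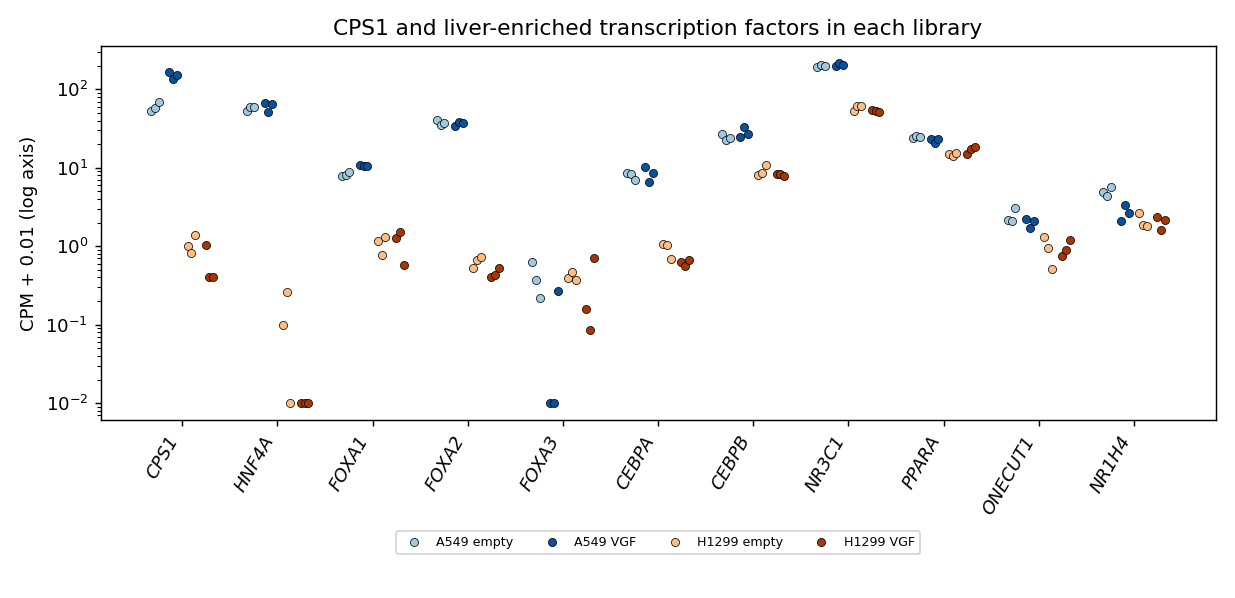
CPS1 and 10 of the liver-enriched transcription factors in each library, as CPM plus 0.01 on a log axis, so that points at the bottom are libraries with 0 counts. HNF4A stands at 10 to 100 CPM in A549 and near 0 in H1299. The A549 points with and without VGF lie side by side for most factors. They lie apart for CPS1, which was chosen for that gap, and DESeq2 but not edgeR called NR1H4 there.

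Hepatocyte markers were read beside CPS1 because it is a liver enzyme. For this and the other marker lists, the shares over all features in A549 were 0.79% called and 13.9% at an unadjusted p under 0.05 in edgeR. DESeq2 called 736 of the 18228 features there and limma voom 334. The share at an unadjusted p was taken from edgeR only. Of 12 hepatocyte markers 6 were tested and edgeR called 0 with VGF in A549, with 1 at an unadjusted p under 0.05. The summed level of the 12, here CPM by library total without the TMM factor, ran from 7.57 to 14.9 in controls and from 4.56 to 5.23 with VGF. In H1299 it was 0.162 to 0.767. ALB, which encodes albumin, had 190, 251 and 376 counts in A549 controls and 59, 82 and 81 with VGF, a log2 change of -1.91 that edgeR did not call (adjusted p = 0.145) and that DESeq2 and limma voom did. APOA2 and G6PC had 0 counts in all 12 libraries. The fitted changes of ALB and CPS1 in A549 thus had opposite signs, but ALB does not stand for the list. Of the 6 tested hepatocyte markers 2 had a positive change, with a median of -0.29 and a highest value of 0.51 on the log2 scale. Without A549 control replicate 3 that median was 0.31. Of the 12 endothelial markers 10 were tested and edgeR called 0 in A549, with 9 at an unadjusted p under 0.05, against 13.9% of all features. DESeq2 and limma voom called ESAM and had 2 and 1 markers at such a p. The median log2 change of the 10 was 6.5, and 0.80 without VGF library 2, where edgeR also called 0. The summed level of the 12, also without the TMM factor, was 71.5 to 82.0 CPM in A549 controls and 80.6, 85.7 and 430 CPM in A549 with VGF. The library at 430 CPM was VGF library 2, whose CPS1 level was the lowest of its group. Of 6 immune markers 3 were tested, and CD68 fell in A549 (log2 -0.42, adjusted p = 0.0187), a call lost without A549 control replicate 2, A549 control replicate 3 or A549 VGF replicate 3 (adjusted p = 0.0576, 0.0594 and 0.0598). In A549 edgeR called 0 epithelial, lung and fibroblast markers, with 2, 0 and 1 at an unadjusted p under 0.05. DESeq2 and limma voom called the epithelial KRT18, and edgeR called 1 epithelial marker without VGF library 2.

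The neighbours of CPS1 on chromosome 2 were examined within 1 Mb. The 7 tested neighbours were MAP2, UNC80, RPE, KANSL1L, ACADL, LANCL1 and ERBB4, and edgeR called 0 of them with VGF in either line, with 3 in A549 and 1 in H1299 at an unadjusted p under 0.05, beside 13.9% and 7.8% of all features there and calls for 0.79% and 0.011%. DESeq2 called MAP2 in H1299, where it called 139 of the 18228 features. LANCL1, a glutathione-binding protein gene, shares the start region with CPS1. Its A549 controls held 5218, 5030 and 5654 counts and its VGF libraries 5201, 6950 and 6424. In CPM each VGF library was above each control, in a comparison where 18.4% of all features had groups that did not overlap. The log2 change of LANCL1 was 0.19 (SE 0.05, adjusted p = 0.105 by edgeR), against 1.35 for CPS1. DESeq2 and limma voom, which called 736 and 334 features in A549, did call LANCL1 there (adjusted p = 0.00894 and 0.0491). So did edgeR without A549 control replicate 3 (0.0362). In H1299, where LANCL1 held 3926 to 4205 counts in controls, its VGF change was 0.02. ACADL, a mitochondrial acyl-CoA dehydrogenase gene, had 0 counts in A549 and 95 to 111 in H1299 controls.

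The genes whose log2 CPM followed CPS1 most closely over the 12 libraries were SCARB2 (Pearson r 0.995), SEPT2 (0.994), RAB15 (0.994), H1F0 (0.994) and SERPINE2 (0.994). The lowest values were those of DGLUCY (-0.994), SLC17A5 (-0.994) and POLR1C (-0.994). Across 12 libraries that fall into 2 lines, these values mostly describe the gap between the lines, and 11836 genes of at least 5 CPM in a group were compared. Within the 6 A549 libraries the closest were MAGEA3 (0.998), CXXC5 (0.994), NEK2 (0.994), ST6GAL2 (0.993) and RAB15 (0.991). MAGEA3, a cancer-testis antigen gene with near-identical copies on the X chromosome, was higher by 1.21 on the log2 scale in A549 with VGF, beside 1.35 for CPS1, a value given without a test because the gene was picked for its likeness to CPS1 there. In H1299 MAGEA3 was higher than in A549 by 3.41 on the log2 scale, the opposite of CPS1. The A549 libraries fall into 2 vector groups, so a high value there largely restates that these genes differ between the vectors.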

How the data were processed

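Messenger RNA of 12 libraries from A549 and H1299 was measured in 4 groups of 3, grouped by their titles; the free-text treatment note speaks of empty vector for every library and was not used. One table that the authors deposited holds unnormalized counts. A second deposited table holds FPKM for the same features. GRCh38 and DESeq2 (no version) are named per the submitters' processing notes. The aligner is not given in the sources used here, nor are the counter, annotation, filters and strand use. Of 26535 features, 19974 carried an Ensembl ID, all found in GENCODE 29, and 6561 were unannotated loci; 18 lines of stray text were left out.

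Counts were tested with edgeR 4.0.16 in R 4.3.3 (quasi-likelihood F test, TMM scaling, filterByExpr by group, Benjamini-Hochberg adjustment over 18228 features). One fit held the 4 group means without a block, with 8 residual and 4.44 prior degrees of freedom. SE were derived from the F statistic, and CPM used library totals times TMM factors of 0.919 to 0.940 in A549 and 1.06 to 1.09 in H1299. Summed marker levels used library totals alone. Levels of different genes were compared on FPKM. Replicate pairs differed beyond sampling noise (chi-square per degree of freedom 8.42 to 23.7). Alternatives were DESeq2 1.42.0, upper-quartile scaling, no filter, limma 3.58.1 on log2(FPKM + 1) or log2(FPKM + 0.1) with and without a filter, limma voom, each line alone, a replicate block and each library left out. The fit was tested on simulated data.

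The genes and the lists were chosen with earlier results of these data known. All 10 genes and VGF were always named. From each list the members called with VGF, the member with the smallest p where none was called, and up to 3 per direction between lines could be named; so could all tested genes within 1 Mb of CPS1, the genes closest to CPS1 by correlation, and defining markers. VTI1B and AC068533.4 were added for their overlap with ARG2 and ASL after values had been seen. Some members of the lists are counted but not reported here by name. Floors of 3 counts over a group cover counting error only.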

Additional observations from a re-analysis of the deposited data

Results flagged for a closer look

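VGF stood out because its rise differed between the lines by a test of the difference itself: the H1299 effect minus the A549 effect was -5.52 on the log2 scale (adjusted p = 1.49e-09 by edgeR), with 67 to 94 counts in A549 controls against 3465 to 3989 in H1299 controls. VGF is the introduced gene, so a rise in both lines was set by the design. With the VGF vector its count ranges in the lines, given above, overlapped. SAT1, the polyamine acetyltransferase, differed between the lines by 0.51 (adjusted p = 0.0174), lower with VGF in A549 and 0.03 in H1299. That call was lost with the replicate number as a block (adjusted p = 0.0738) and in 4 of the fits that left out a library (0.0515 to 0.0551).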

How the results depend on the processing

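Under the alternatives run, 0 of the 7 tested urea cycle genes other than CPS1 were called with VGF in either line or for the difference, and CPS1 was not called in H1299. CPS1, which is not counted in A549 or for the difference because it was chosen there, kept its sign in A549, at 1.25 to 1.36 across the other settings and 1.27 to 1.46 when single libraries were left out. Between the lines 7 to 8 of the 8 were called when single libraries were left out. Counts over all features depended more on the settings, and the cause was not tested. In A549, 144 became 736 with DESeq2, 247 with limma on log2(FPKM + 1) without a filter, 334 with voom and 52 to 130 with a library left out. There limma on log2(FPKM + 1) called 81 higher and 127 lower, against 74 and 70, and without a filter 91 and 156. In H1299, 2 became 139 with DESeq2, 5 without a filter, 4 with limma on log2(FPKM + 1), filtered or not, 1 with voom, 4 with each line alone and 1 to 4 with a library left out. For the difference, 29 became 318 with DESeq2, 19 with voom and 18 to 36 with a library left out.

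The CPS1 difference between lines of -2.15 was -1.35 on log2(FPKM + 1), -1.83 on log2(FPKM + 0.1) and -2.75 to -1.91 with a library left out. Values near 0 changed sign without a call. On log2(FPKM + 1) and log2(FPKM + 0.1), ASL in A549 was 0.0057 and 0.0060, ASS1 in H1299 -0.010 and -0.018, the ASS1 difference -0.091 and -0.11, and LANCL1 in H1299 -0.00099 and -0.0011. NAGS in A549 was 0.010 on log2(FPKM + 0.1) and 0.013 with voom, and the ARG2 difference was 0.071 on log2(FPKM + 1). With a library left out the ranges were -0.088 to 0.062 for ASL and -0.23 to 0.19 for NAGS in A549, -0.022 to 0.075 for CAD, -0.0083 to 0.11 for SAT1 and -0.0052 to 0.026 for LANCL1 in H1299, and -0.081 to 0.13 for the ASS1 difference.

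Pairing by replicate number was weak and differed between the lines. In A549, deviations of same-numbered libraries correlated at 0.039, -0.048 and -0.053 for numbers 1, 2 and 3. In H1299 the same values were 0.041, 0.053 and 0.023, and each library correlated best with its own number, as unlike numbers reached at most 0.0089. With the number as a block, 63 features were called in A549 (42 higher, 21 lower), 1 in H1299, 21 for the difference and 13927 between the lines, and SAT1 (difference, adjusted p = 0.0738) and CD68 (adjusted p = 0.0914) missed the threshold. Depth limits CPS1 in H1299, NAGS, ARG2 in A549, OTC and ARG1.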
